A study of Mus musculus with 8 samples.

Results

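The testis beta-defensin genes Defb19, Defb36 and Defb45 were chosen by name, and every non-control array probe carrying one of those names was taken. Probes were found for 2 of the 3 genes, 2 probes for Defb19 and 1 for Defb36, out of 41174 probes for all genes, of which 22975, for 16969 genes, were bright enough to test. Defb45 was matched by no probe under its name, its older name or its accession, and was not analysed here. The study compared male C57BL/6J mice aged 21 weeks that were given di(2-ethylhexyl) phthalate (DEHP), a plasticiser, at 200 mg/kg per day for 21 days with mice given only the corn oil vehicle, 4 mice per group. The labels name no engineered allele in either group. Areas rich in Sertoli cells, described as the middle layer of the seminiferous epithelium, were cut out by laser, and RNA from 1 cap per mouse was amplified in 2 rounds and hybridised to Agilent 2-colour arrays. Each of the 4 DEHP mice was hybridised against 1 vehicle mouse on 2 arrays with the dyes swapped, giving 8 arrays. The protocol text also speaks of Leydig cells where the tissue label says Sertoli cells.

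Beta-defensins are small cationic peptides that are secreted by epithelia and held in shape by disulfide bridges between conserved cysteines. They disrupt microbial membranes, and some also bind the chemokine receptor CCR6. In the male reproductive tract many members are made in the testis and epididymis and coat sperm. Defb19 is known from somatic cells of the testis, including Sertoli cells, the cells that nurse the germ cells. Defb19, Defb45 and Defb36 are consecutive genes, in that order, in the chromosome 2 cluster of beta-defensins in the RefSeq gene list for GRCm38.p6.

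The probe sequences are shown because they decide what was measured: the Defb19 probes overlap and report on nearly the same stretch of transcript. Bases shared by both Defb19 probes are in capitals, and the Defb36 probe is in lower case throughout. All 3 were read from the array files, 5′ to 3′, and each has 60 bases.
Defb19, first probe: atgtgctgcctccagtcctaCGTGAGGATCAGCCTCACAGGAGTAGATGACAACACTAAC
Defb19, second probe: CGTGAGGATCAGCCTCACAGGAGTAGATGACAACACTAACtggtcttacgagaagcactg
Defb36: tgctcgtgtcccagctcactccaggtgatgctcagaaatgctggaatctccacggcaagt
The Defb19 probes lie on the minus strand of chromosome 2 in the mm7 build that the array files use, at chr2:152317056-152317115 and chr2:152317036-152317095. They share 40 bases and so are not independent measurements of Defb19. The Defb36 probe lies on the plus strand, and its 60 bases were placed over chr2:152345379-152353373, a span of 7995 bases, so its sequence is not contiguous in that build. Exon and UTR annotation for mm7 was not used here. No probe of another beta-defensin matched the Defb19 probes at more than 24 of 60 aligned bases or the Defb36 probe at more than 21.

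Defb19 and Defb36 were both detected in every mouse. All 3 probes were well above background, Agilent's own test of a spot against its surround, in 16 of 16 channels, and no spot was saturated. Raw intensity of the first Defb19 probe ran from 6557 to 14454 units in DEHP channels and from 4547 to 14229 in vehicle channels, over a local background of 42 to 59.5. Raw intensity of Defb36 ran from 233.8 to 432.9 units in DEHP channels and from 195.3 to 420.5 in vehicle channels, over a background of 45 to 58.5. Defb36 spots were thus much closer to their background than Defb19 spots, but intensities of different probes give no order of transcript amounts.

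Both genes had a mean ratio of DEHP over vehicle above 0, in 3 of 4 mouse pairs each, and neither passed the adjusted test. Of 22975 probes tested over all genes, 0% had an adjusted p below 0.05, and the 3 probes of Defb19 and Defb36 were among the rest. The mean log2 ratio of 0.2 or more that all 3 probes reached was reached by 3.64% of the probes. An unadjusted p below 0.05 with a higher level under DEHP, which all 3 probes had, was seen in 2.29% of them. The 2 Defb19 probes share most of their bases, so these counts stand for 2 genes, which were chosen with such results known. The cutoff of 0.2 lies just below the lowest of the 3 mean ratios, 0.23, so reaching it is not a test of these genes.

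The level of Defb19, as log2 normalised intensity averaged over the Cy5 and Cy3 channels of a mouse, was 13.19, 13.59, 13.35 and 13.05 in DEHP mice 1 to 4 and 12.79, 12.73, 13.28 and 13.36 in vehicle mice 1 to 4. Vehicle mice 1 and 2 were below every DEHP mouse, whereas vehicle mice 3 and 4 were within the DEHP range, so the groups overlapped. The means were 13.29 ± 0.23 for DEHP and 13.04 ± 0.32 for vehicle (SD, n = 4 mice each), with p = 0.257 in a 2-sided exact permutation test whose smallest possible p is 0.0286. Within pairs, named by the number of their DEHP mouse, the log2 ratio was 0.47, 0.31, -0.01 and 0.26. Pair 3 was close to 0 and the other 3 were above it. The mean was 0.26 ± 0.20 (SD, n = 4 pairs), a 1.20-fold level with a 95% interval of 1.03 to 1.39, with an adjusted p of 0.903 in limma (Benjamini-Hochberg over all probes tested, 0.0302 unadjusted).

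The second Defb19 probe gave the same picture on its shared bases. Its levels were 13.22, 13.52, 13.32 and 13.07 in DEHP mice 1 to 4 and 12.81, 12.74, 13.14 and 13.33 in vehicle mice 1 to 4. Vehicle mice 1 and 2 were again the lowest and DEHP mouse 2 the highest. The mean log2 ratio was 0.28 ± 0.21 (SD, n = 4 pairs), and limma gave an adjusted p of 0.903.

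The level of Defb36, on the same log2 scale but for its own probe only, was 8.78, 8.70, 8.82 and 8.63 in DEHP mice 1 to 4 and 8.22, 8.40, 8.70 and 8.69 in vehicle mice 1 to 4. The 4 DEHP mice lay close together. Vehicle mice 1 and 2 were the lowest of the 8, as for Defb19, and the groups overlapped through vehicle mice 3 and 4. The means were 8.73 ± 0.08 for DEHP and 8.50 ± 0.24 for vehicle (SD, n = 4 mice each), with p = 0.143 in the 2-sided exact permutation test. The log2 ratio in pairs 1 to 4 was 0.38, -0.0001, 0.13 and 0.41. Pair 2 was at 0, where for Defb19 it had been pair 3. The mean was 0.23 ± 0.20 (SD, n = 4 pairs), a 1.17-fold level with a 95% interval of 1.01 to 1.37, with an adjusted p of 0.903 in limma (0.0448 unadjusted).

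**Figure D1:**
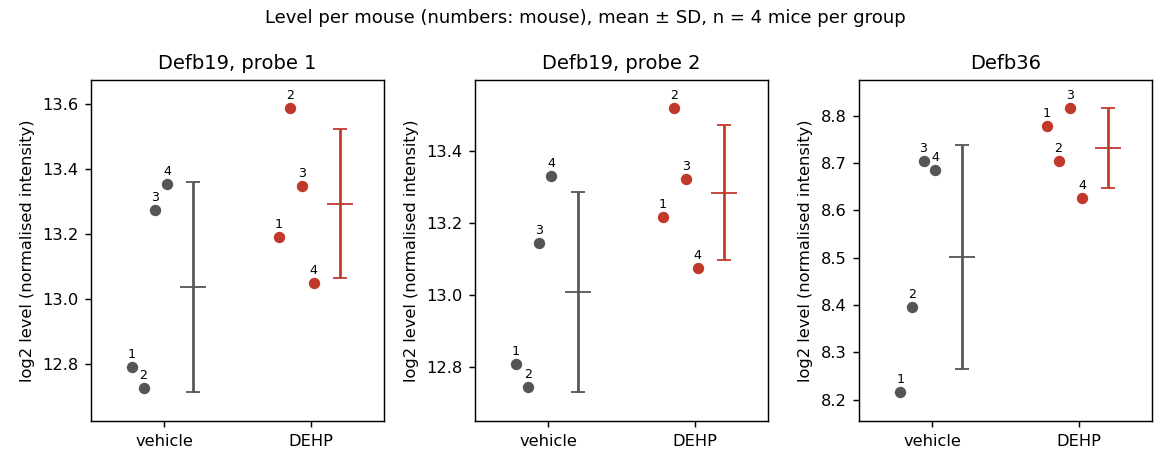
Log2 level of each probe in each mouse (vertical axis) for vehicle and DEHP mice, with the mouse number above each point and the mean ± SD beside it, n = 4 mice per group. Vehicle mice 1 and 2 are the lowest in all 3 panels, and vehicle mice 3 and 4 lie among the DEHP mice.

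The labels name mice as separate animals, so these p-values measure the spread between animals together with that of capture and amplification. In RNA from whole captured areas, a different number of cells of a type and a different amount of RNA per cell cannot be told apart. Leaving out loess and centring each array on its median raised the Defb19 ratio to 0.41, and weighting the pairs by their agreement lowered the Defb36 ratio to 0.13, both without passing the adjusted test.

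The dye-swapped arrays repeated each pair's ratio closely. For the first Defb19 probe the ratio with DEHP in Cy5 and in Cy3 was 0.45 and 0.48 in pair 1, 0.26 and 0.37 in pair 2, -0.05 and 0.04 in pair 3, and 0.20 and 0.33 in pair 4. For Defb36 it was 0.30 and 0.46 in pair 1, -0.03 and 0.03 in pair 2, 0.09 and 0.17 in pair 3, and 0.39 and 0.43 in pair 4. The range over pairs was wider than the gap between orientations of any pair. That gap was at most 0.13 for the first Defb19 probe and 0.16 for Defb36. Some pairs differed by less than this largest gap. They were pairs 2 and 4 for the first Defb19 probe, and pairs 1 and 4 and pairs 2 and 3 for Defb36. For these probes the arrays with DEHP in Cy3 gave the higher ratio in every pair, which the second Defb19 probe did not share. For levels taken from Cy5 channels alone, the Defb36 difference between groups was 0.40 (exact permutation p = 0.0286, the smallest possible). From Cy3 channels alone it was 0.06 (exact permutation p = 0.686). Those single-dye comparisons set mice of one array orientation against mice of the other, so orientation and group cannot be told apart in them.

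**Figure D2:**
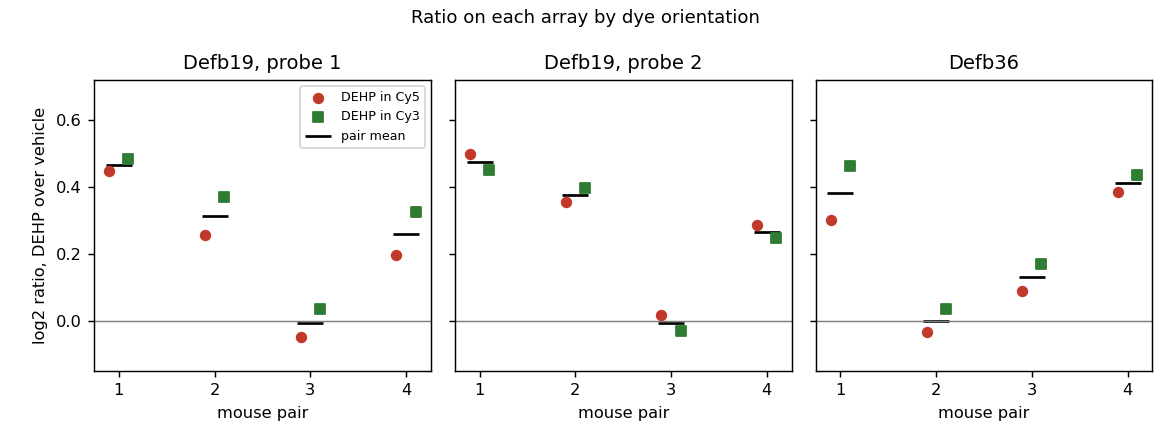
Log2 ratio of DEHP over vehicle (vertical axis) for each mouse pair (horizontal axis), with circles for arrays with DEHP in Cy5, squares for DEHP in Cy3 and a bar for the pair mean. The near-zero pair is pair 3 for both Defb19 probes and pair 2 for Defb36.

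From mouse to mouse the log2 level of Defb19 varied more than that of most probes tested, without matching for intensity. Its SD over the 8 mice was 0.29 on the log2 scale, larger than that of 94.8% of the tested probes, whose median SD was 0.13, and its lowest and highest mice were 1.82-fold apart. The SD of Defb36 was 0.21, larger than that of 79.5% of them, with mice up to 1.52-fold apart. These SDs include any difference between groups. The offset of 50 added to intensities narrows the log2 spread of faint probes, and no share among equally bright probes was computed. Within groups, the SD of Defb36 was 0.08 in DEHP mice and 0.24 in vehicle mice, and that difference in spread was not tested. From low to high, the first Defb19 probe placed vehicle 2, vehicle 1, DEHP 4 and DEHP 1. Above them came vehicle 3, DEHP 3, vehicle 4 and DEHP 2. The second probe gave the same order except that DEHP 1 and vehicle 3 changed places. Of the 7 neighbouring gaps of the first probe 2, between vehicle 1 and DEHP 4 and between vehicle 4 and DEHP 2, exceeded 0.17. That value is 2 standard errors of a gap computed from the 2 dye channels of each mouse. The order of Defb36 was vehicle 1, vehicle 2, DEHP 4, vehicle 4, DEHP 2, vehicle 3, DEHP 1 and DEHP 3, and 0 of its 7 neighbouring gaps exceeded the corresponding 0.26. Both values removed only a mean dye offset over all 8 mice. For Defb36, Cy5 was above Cy3 in every DEHP mouse and below it in every vehicle mouse. For the first Defb19 probe Cy5 was below Cy3 in every vehicle mouse, and for the second in every one but vehicle mouse 1. This offset between array orientations cancels in a mouse's mean level but raises both values. A gap under them is therefore not shown to be within error.

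Over the 8 mice, Defb19 and Defb36 had a Pearson r of 0.82 (exact permutation p = 0.0152, adjusted 0.0455 over 3 relations) and a Spearman rho of 0.60 (exact permutation p = 0.132, adjusted 0.397). Both mice of a pair share arrays, and the mice fall in the DEHP and vehicle groups. The permutations for these relations ignore both facts, so their p-values are nominal. Without vehicle mice 1 and 2, the mice farthest from the median of Defb19, r was 0.25, so the relation rests on those 2 mice. The other relations set each gene against the summed level of Sertoli cell markers. There r was 0.47 for Defb19 (exact permutation p = 0.240, adjusted 0.359) and 0.06 for Defb36 (exact permutation p = 0.890, adjusted 0.890). Spearman's rho for them was 0.40 (exact permutation p = 0.327, adjusted 0.490) and -0.26 (exact permutation p = 0.536, adjusted 0.536). Without DEHP mouse 1 and vehicle mouse 2, r was 0.01 and -0.33. Vehicle mouse 2 had the lowest marker sum of the 8, 48516 units, and vehicle mouse 1, also low in both defensins, was at 67034, the second highest. The part of Sertoli cell content in the low defensin levels was not tested.

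**Figure D3:**
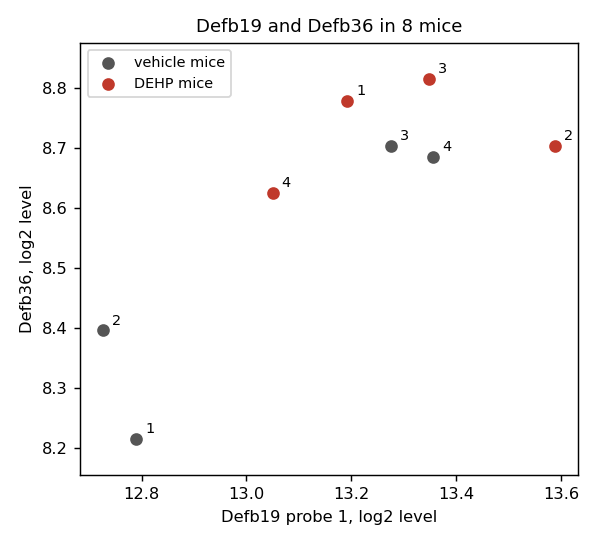
Level of Defb36 (vertical axis, log2) against level of the first Defb19 probe (horizontal axis, log2) in the 8 mice, grey for vehicle and red for DEHP, numbered by mouse. Vehicle mice 1 and 2 stand apart at the lower left, and the other 6 mice form no clear line.

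The named genes whose level followed each defensin most closely over the 8 mice were not the same for the 2. In every one of them, however, vehicle mice 1 and 2 were the lowest, as for the defensins themselves. No r without those 2 mice was computed for these genes. For Defb19 they were Tusc1 (r = 0.971), Trappc2, a subunit of a vesicle tethering complex (0.967), Krtcap2, a subunit of the oligosaccharyltransferase (0.960), Ppdpf (0.955) and Scp2, a sterol carrier protein (0.954). For Defb36 they were Egflam, an extracellular matrix protein (0.987), Ldlrad4 (0.982), Bok, a member of the Bcl-2 family (0.974), Dtymk, a thymidylate kinase (0.973), and Alk, a receptor tyrosine kinase (0.973). These are descriptions in mice that share arrays. They were picked as the highest after probes with clone-like or accession-like names and those of the defensins themselves were left out. Over all 22975 probes, an r over 0.8 was reached by 310 for Defb19 and by 645 for Defb36.

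Other beta-defensins were mostly not detected in these captures. Of 26 other beta-defensin genes with a probe, 14 were above background in no channel, among them Defb1, a widely expressed epithelial member. Tested were 8, of which 6 had a mean ratio above 0 and 2 below, with a median of 0.04 and a range of -0.07 to 0.29, and 0 passed the adjusted test in limma or had an unadjusted p below 0.05. Over all tested probes the median log2 ratio was -0.002, and 48.9% of the probes were above 0. In the chromosome 2 cluster, Defb20 and Defb29 were above background in 2 of 16 channels each and Defb22 in 7 of 16, with a log2 ratio of 0.02 ± 0.03 (SD, n = 4 pairs). The neighbours of the cluster on the array had a log2 ratio of -0.17 for Zcchc3, 0.03 for 6820408C15Rik and -0.25 for H13, none past the adjusted test, while Rem1 was above background in only 2 of 16 channels.

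Defb41, a member known from the epididymis, had the highest mean ratio of the other beta-defensins. It was at 0.37, -0.15, 0.45 and 0.48 in pairs 1 to 4, a mean of 0.29 ± 0.30 (SD, n = 4 pairs) with an adjusted p of 0.903 in limma. Pair 2 was the exception, as it was the lowest pair for Defb36. Vehicle mouse 1 was the lowest of the 8 for Defb41 too, at a log2 level of 8.56, and vehicle mouse 2 was second lowest at 8.88.

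Defb15 and Defb34, both on chromosome 8, could not be separated with confidence, because their probes are alike. Their sequences are shown for that reason, with the 6 bases that differ in capitals.
Defb15: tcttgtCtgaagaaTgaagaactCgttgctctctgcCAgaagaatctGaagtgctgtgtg
Defb34: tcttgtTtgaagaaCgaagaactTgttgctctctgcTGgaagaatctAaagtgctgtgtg
The probes match at 54 of 60 bases and lie in mm7 at chr8:20712854-20712913 on the minus strand and chr8:19103075-19103134 on the plus strand. Defb15 had a log2 ratio of 0.03, 0.13, 0.52 and -0.40 in pairs 1 to 4, and Defb34 of 0.01, 0.04, 0.32 and -0.21. Both were highest in pair 3 and lowest in pair 4, unlike Defb19 and Defb36. Defb11 was also lowest in pair 4, at -0.39, as was Defb14, at -1.03, a gene picked after its values were seen. Defb37 was above background in 8 of 8 Cy5 channels and 0 of 8 Cy3 channels, so its ratio of -0.07 rests on one dye.

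**Figure D4:**
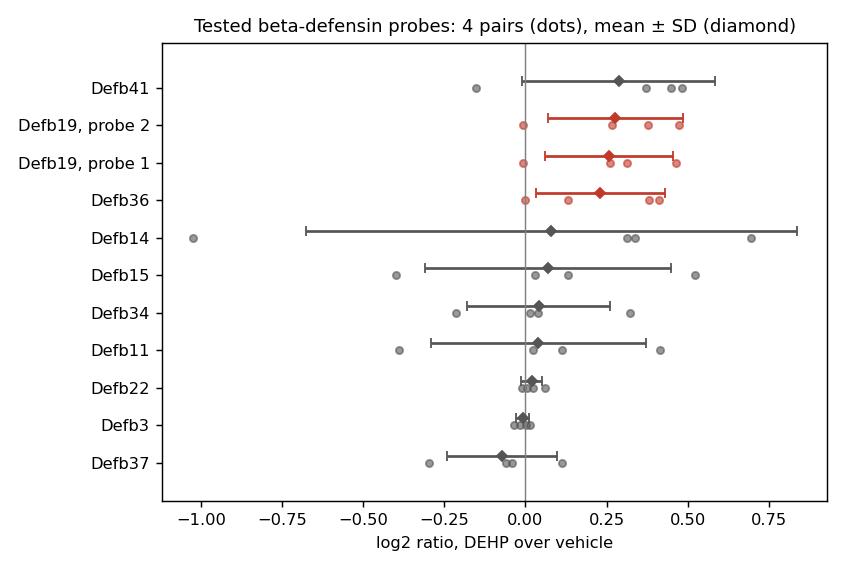
Log2 ratio of DEHP over vehicle (horizontal axis) for the 11 beta-defensin probes tested, with a dot for each of the 4 mouse pairs and a diamond with a bar for the mean ± SD. Defb19 and Defb36 are in red, and Defb14 has the widest spread of pairs.

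Genes linked to beta-defensin action and defence were given by counts, since 0 members of any of these lists passed the adjusted test. Of 12 genes for receptors of beta-defensins and ligands that share them, 6 were tested, 4 above and 2 below 0, with ratios from -0.04 to 0.03. The receptor genes Tlr2, Tlr4 and Ccr2 were above background in no channel. Of 32 genes of innate sensing and NF-kB signalling with a probe, 16 were tested, 10 above and 6 below 0, with a median of 0.01. Nod1, a cytosolic sensor of bacterial wall fragments, was at 0.20 ± 0.29 (SD, n = 4 pairs). Of 27 other secreted antimicrobial proteins with a probe, 19 were tested, 9 above and 10 below 0. Among them Wfdc1 was at 0.16 ± 0.09 and Slpi, a secreted protease inhibitor, at 0.96 ± 1.07 (SD, n = 4 pairs), each above 0 in 4 of 4 pairs. Of 13 alpha-defensin genes with a probe, 3 were tested, with ratios from -0.02 to 0.004.

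The captures held markers of Sertoli cells and of other cells. Of 28 Sertoli markers with a probe 25 were tested, 20 above and 5 below 0 with a median of 0.05. Among all tested probes 48.9% were above 0. Fabp5 and, from a second list of Sertoli transcription factors and hormone receptors (9 of 13 tested), Dmrt1 were above background in no channel. Summed Sertoli marker levels ran from 55385 to 70577 units in DEHP mice and from 48516 to 67034 in vehicle mice, so the groups overlapped. Dhh, a Sertoli cell signal, was at 0.26 ± 0.08 (SD, n = 4 pairs), above 0 in 4 of 4 pairs. Germ cell markers were present throughout, with 14 of 15 spermatocyte, 13 of 13 round spermatid and 14 of 14 elongating spermatid markers tested. Of epididymis and rete testis markers, tissues where many beta-defensins are made, 5 of 15 were tested, with Lcn5, Lcn8 and Cst11 above background in no channel. Nearly all of that list's summed level, 33919 to 52474 units per mouse, came from Cst8, a cystatin-related gene picked after its values were seen, at 33136 to 51699 units. Leydig, peritubular myoid, macrophage and endothelial marker sums overlapped between groups. In 2 of the 17 lists of genes summed per mouse, vehicle mice 1 and 2, the mice low in Defb19 and Defb36, stood at one end. Peritubular myoid markers were lowest in them, at 7833 and 7796 units against 8878 to 9726 in the other 6 mice. Spermatocyte markers were highest in them, at 359362 and 357686 units against 313802 to 343755. These 2 mice were picked by their defensin levels, and how often any other 2 mice stand at one end of a list was not counted. Of 9 neutrophil markers 1 was tested, Mpo, at a log2 ratio of 0.40 ± 0.17 (SD, n = 4 pairs) with an adjusted p of 0.903 in limma. Its level was 1165 to 1595 units in DEHP mice and 886.7 to 1124 in vehicle mice. The share of all tested probes whose groups do not overlap was not counted, so these ranges cannot be called unusual. S100a8, S100a9, Cxcr2 and Retnlg were above background in no channel. The part of these markers in the Defb19 and Defb36 values was not tested.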

How the data were processed

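The data are 8 Agilent 2-colour arrays with 45018 probe spots each. The authors deposited scanner output, in which spot intensity is on a linear scale and LogRatio is a log10 ratio of Cy5 over Cy3, per the file headers, and a table of log2 ratios made with limma, per the submitters' processing notes. The direction of each ratio computed here came from the dye labels. The deposited log2 table was matched to spots by line order, checked by correlation with the normalised ratios computed here (its scale stays unknown). The sign of each of its arrays was set by the same correlation, which was weakest in pair 2 with DEHP in Cy5, at 0.64. Here limma 3.58.1 (R 4.3.3) applied normexp with an offset of 50 and loess. Control spots and outlier spots were left out, spots of a probe were averaged, and the 2 arrays of a pair were averaged. Probes well above background in at least 4 of 8 channels of a group were kept, 22975 of 41174. An intercept fit with eBayes gave Benjamini-Hochberg p-values over all of them. Levels per mouse used Aquantile scaling and exact permutation over 70 splits. Well above background were 49.8% to 59.5% of spots per channel. The replicates behind each ratio are 4 pairs of mice. Members and lists were chosen with earlier results of these data known. Other beta-defensins named are the 6 tested ones with the smallest p, and per other list the 2 such genes plus a few set by name. Since Defb45 had no probe, 3 relations over mice were computed from Defb19, Defb36 and the Sertoli marker sum, chosen after the files were seen. Alternatives covered background, normalisation, filter, dye, variance model, the replicate block and each pair left out. A result covered by this naming rule is left out.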

Additional observations from a re-analysis of the deposited data

Results flagged for a closer look

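Of 87 groups of 4 values examined, 2 had 1 value far from the others by Dixon's test, where chance alone gives about 5%. In Gatm, a creatine synthesis enzyme used as a Sertoli marker, 1 mouse pair had a log2 ratio of -0.20 while the other 3 were above 0. In vehicle mice, the summed level of the alpha-defensins was 3253 units in vehicle mouse 2, against 2736 to 2810 in the other 3.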

How the results depend on the processing

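Every alternative run kept the direction and the side of the adjusted threshold of Defb19 (log2 ratio 0.19 to 0.41 over 18 alternatives) and Defb36 (0.13 to 0.31 over 18), with adjusted p from limma of 0.186 to 0.999 and 0.204 to 0.999. The count of probes called was 0 under each alternative, with 150 to 3421 probes at an unadjusted p below 0.05 against 1055 as reported. Leaving out each pair in turn gave 0.19 to 0.35 for Defb19 and 0.17 to 0.31 for Defb36. With the mouse pair as a replicate block over the 8 arrays, the ratios were 0.26 and 0.23, and no call changed. The Defb36 difference between mice was 0.40 from Cy5 channels alone (exact permutation p = 0.0286) and 0.06 from Cy3 channels alone (exact permutation p = 0.686). Group and array orientation cannot be told apart in either, and the cause was not tested. In the authors' deposited table, with each array's sign set by its correlation with the ratios computed here, Defb19 averaged 0.27 and Defb36 0.30. The direction in that table is therefore not independent of those ratios. No alternative could be run for Defb45.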
